A study of Mus musculus with 6 samples.

Results

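The genes described here are 39 mouse genes of the ATF4 response. They are the transcription factors and stress regulators around ATF4, enzymes of amino acid synthesis and related paths, amino acid transporters, and cytosolic aminoacyl-tRNA synthetases. They were taken from a list of gene names, matched by Ensembl identifier, and they are 39 of the 55536 genes in the deposited files. Their mRNA was sequenced from SVEC4-10, a mouse cell line that the labels call immortalised and endothelial, kept in medium with fetal bovine serum. Untreated cells gave the 3 control libraries. Cells treated for 24 hours with nattokinase, a protease of fermented soybeans that degrades fibrin, gave the other 3, and the sources used here do not name the dose. Neither group carries a named genotype or a further agent. The labels do not tell whether replicates came from separate cultures. The p-values here therefore set the group difference only against the spread between these libraries, and that spread may be technical.

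ATF4 is a transcription factor whose protein is made when the initiation factor eIF2 is phosphorylated by kinases that sense amino acid shortage, endoplasmic reticulum stress, heme lack or viral RNA. Control lies largely in translation of the Atf4 mRNA, so the mRNA level is no measure of the protein. ATF4 pairs with C/EBP proteins on composite sites and raises transcription of genes that import amino acids, make serine, proline and asparagine, charge tRNAs, and later limit the response itself.

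Such composite sites have the core TGATGNAA, which was searched on both strands of the RefSeq promoter windows (GRCm38.p6, 250 bases before to 50 bases after each annotated start). Windows were found for 32 of the 39 genes, and 13 of these 32 (40.6%) held the core, against 1219 of 27025 genes with a window (4.51%) and 1304 of 32851 windows (3.97%). The 13 were Aars, Asns, Chac1, Gars, Iars, Nupr1, Pck2, Pycr1, Slc7a11, Tars, Trib3, Vldlr and Yars. The E-box CACGTG, searched for comparison, was in 6 of the 32 genes (18.8%) and in 8.09% of all genes with a window, and no match of it overlapped a match of the core in the 32 genes. A match is a run of letters and not a measured binding site. The 6 stretches below are shown because they belong to 3 genes that were lower with nattokinase (Trib3, Pycr1, Pck2) and to 3 well-known ATF4 targets that did not pass the test (Asns, Chac1, Slc7a11). Each is written 5′ to 3′ on the gene's own strand, with the core or its reverse complement in capitals.
Trib3, minus strand, chr2:152344029-152344056: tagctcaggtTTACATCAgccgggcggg
Pycr1, minus strand, chr11:120643818-120643877: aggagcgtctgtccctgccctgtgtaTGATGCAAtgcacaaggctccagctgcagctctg
Pck2, plus strand, chr14:55540137-55540196: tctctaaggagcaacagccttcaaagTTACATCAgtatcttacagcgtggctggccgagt
Asns, minus strand, chr6:7693210-7693258: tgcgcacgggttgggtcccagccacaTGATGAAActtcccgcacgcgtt
Chac1, plus strand, chr2:119351023-119351082: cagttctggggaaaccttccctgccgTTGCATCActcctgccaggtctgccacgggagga
Slc7a11, minus strand, chr3:50443646-50443705: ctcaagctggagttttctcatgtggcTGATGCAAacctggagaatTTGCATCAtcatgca
In Pycr1 and Pck2 the core lay at the same place, 103 to 96 bases before the start. In Trib3 it lay 15 to 22 bases after the RefSeq start, which is just outside the GENCODE M21 gene. Slc7a11 had 2 copies in opposite orientation.

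Levels are given as FPKM, which scales reads to exon length and to the library's assigned reads. Atf4 itself, Phgdh, Shmt2 and Gars stood highest, and 36 of the 39 genes had at least 1 FPKM in all 6 libraries. The other 3, Gdf15, Stc2 and Slc7a3, lay under 1 FPKM in every library and were not tested.

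**Figure D1:**
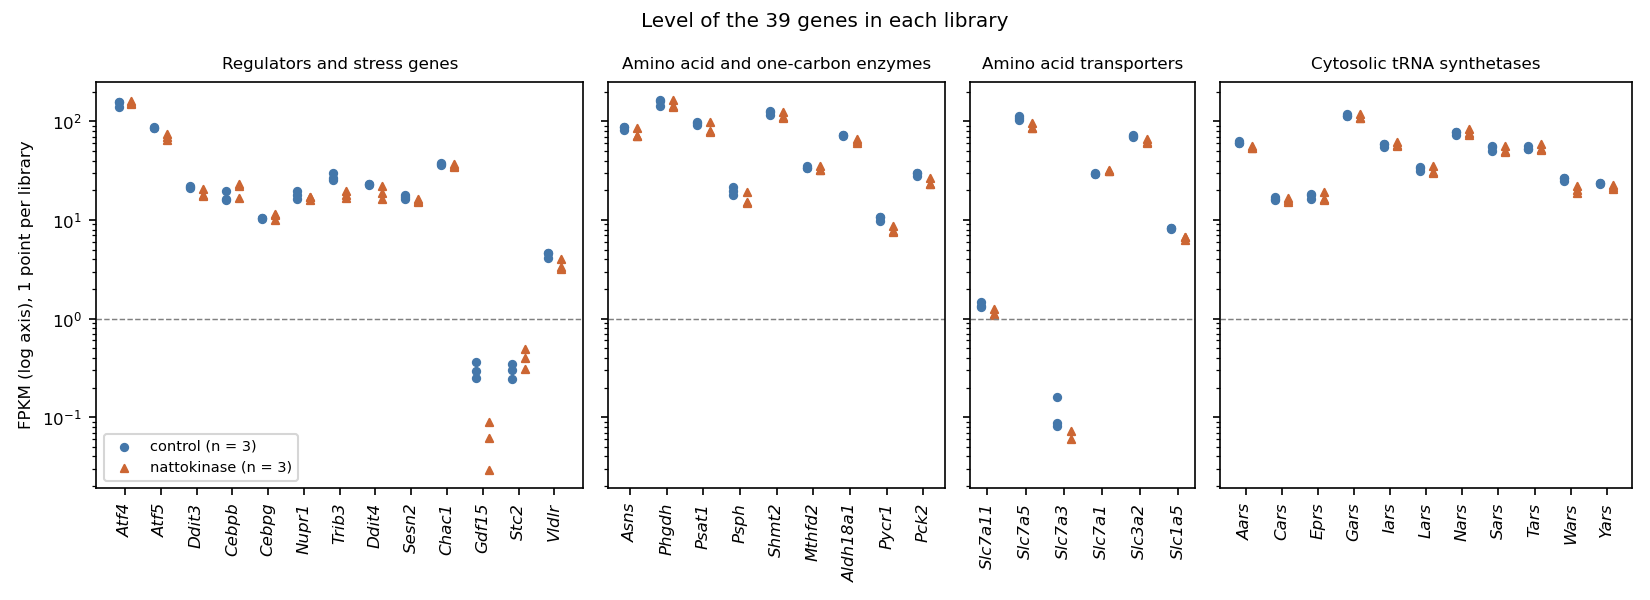
FPKM (log axis) of each of the 39 genes, with 1 circle per control library and 1 triangle per nattokinase library, in 4 panels by role; the dashed line is the filter of 1 FPKM. Gdf15, Stc2 and Slc7a3 lie under the line, Slc7a3 at 0 FPKM in nattokinase replicate 3 is not drawn, and the triangles of Trib3 lie wholly under its circles.

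Libraries held 15044778 to 16496433 reads assigned to genes in the controls and 17525090 to 18341370 with nattokinase. Protein-coding genes took 95.4% to 96.7% of reads in the controls and 98.3% to 98.4% in the treated libraries. Of 14 endothelial markers, 13 missed the filter, against the label, and 4 (Tie1, Erg, Cldn5, Emcn) had no read in any library. They summed to 3.27 to 4.49 FPKM in the controls and 5.73 to 6.30 FPKM with nattokinase, carried by Flt1, which rose. In the same order, 8 fibroblast and mural markers summed to 2392 to 2501 and 2669 to 2741 FPKM. Of these 1 passed as higher, Acta2, whose mean went from 459 to 907 FPKM. The mean of Col1a1 went down from 1403 to 1236 FPKM, without overlap, but missed the threshold (limma adjusted p = 0.084). The 4 lymphatic markers summed to 125.0 to 136.3 and 109.7 to 114.7 FPKM. Most of these sums was Pdpn, which fell from a mean of 119 to 102 FPKM (also called under 8 of 15 alternatives). Flt4 had means of 11.2 and 10.7 FPKM with overlapping groups and did not pass, and Lyve1 and Prox1 had no read. The 3 leukocyte markers summed to 1.54 FPKM at most in the controls and 2.30 to 2.77 FPKM with nattokinase, with Cd68 higher and no read of Ptprc, and 3 epithelial markers to 3.68 to 4.11 and 3.64 to 4.53 FPKM. The part of these shifts in the results was not tested, and in bulk RNA fewer cells of a type and less RNA per cell cannot be told apart.

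With nattokinase, 8 of the 36 tested genes passed the test as lower in FPKM, a relative share of reads, and 0 passed as higher. The 8 were the pseudokinase gene Trib3, the transcription factor gene Atf5, the proline pathway genes Pycr1 and Aldh18a1, the mitochondrial gene Pck2, the transporter genes Slc7a5 and Slc1a5, and the tryptophanyl-tRNA synthetase gene Wars. Ratios of mean FPKM ran from 0.665 for Trib3 to 0.870 for Aldh18a1, so every fall was smaller than 1.5-fold except that of Trib3, at 1.50-fold. Atf4 mRNA differed by less than the spread between replicates.

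The test was limma on log2(FPKM + 1) over 10913 genes, and a gene passed at a Benjamini-Hochberg adjusted p under 0.05. Among the 36 tested genes 8 (22.2%) passed as lower and 0 as higher, where 3.24% of all tested genes passed as lower, 5.61% as higher and 8.85% in either direction. The genes were chosen with earlier results of these data known, so the shares given here are a description and not a test of the list. At an unadjusted p under 0.05 there were 16 of the 36, and 2495 of all 10913 tested genes. The median log2 fold change was −0.11 over the 36 and 0.01 over all tested genes. A value below 0 was found for 29 of the 36 and for 5010 of all 10913 tested genes. Groups did not overlap for 16 of the 36, with nattokinase lower in 15 and higher in 1, and over all tested genes this held for 11.4% and 17.4%. The share of higher genes among all calls was 63.4%, and 49.0% after rescaling to equal protein-coding totals, under which 11 of the 36 and 4.55% of all tested genes were lower, and 0 of the 36 higher.

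**Figure D2:**
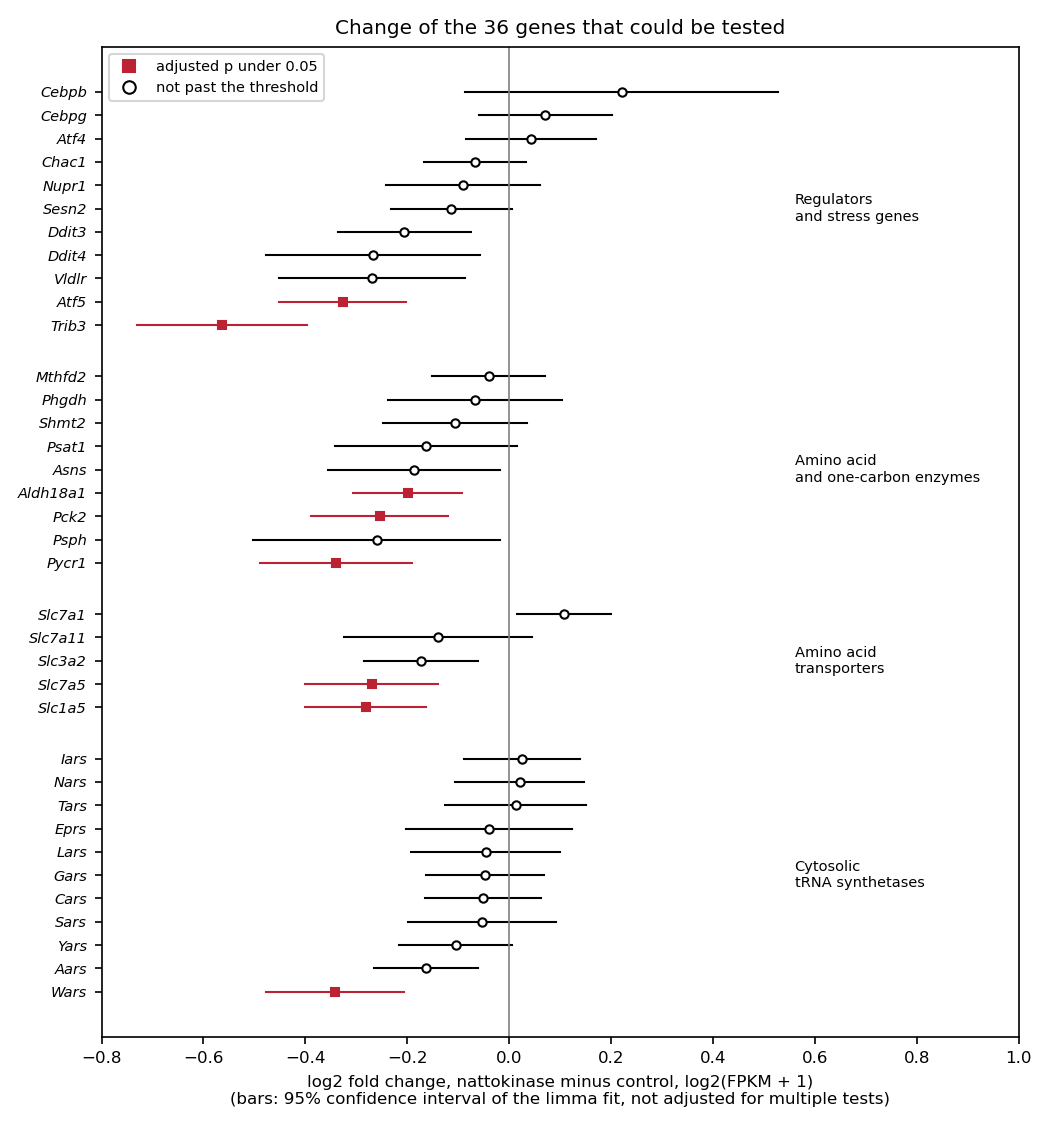
Log2 fold change (nattokinase minus control, on the log2(FPKM + 1) scale) of the 36 tested genes by role, with 95% confidence intervals from the limma fit. Filled squares are the 8 genes with an adjusted p under 0.05, all to the left of 0, and Trib3 lies farthest left at −0.56.

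Among the transcription factors, Atf4 had 140.0, 158.1 and 155.3 FPKM in the controls and 160.9, 154.6 and 151.1 FPKM with nattokinase (chromosome 15, 80255184 to 80257541, GRCm38). The groups overlapped, with the lowest value in control replicate 1 (log2 fold change 0.04, 95% interval −0.09 to 0.17). Atf5, a relative of ATF4 whose translation is controlled in a like way, had 85.3, 88.1 and 86.5 FPKM in the controls and 74.0, 64.2 and 68.9 FPKM with nattokinase (chromosome 7, 44812256 to 44816658). All treated libraries lay below all controls, and Atf5 fell from 86.7 ± 1.42 to 69.0 ± 4.92 FPKM (SD, n = 3; log2 fold change −0.33, SE 0.056, limma adjusted p = 0.0058). Exons of Atf5 overlap those of Nup62 and Il4i1 on the opposite strand, and strand use is not stated. Nup62 had means of 43.6 and 43.1 FPKM.

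Ddit3, which encodes CHOP, a factor linked to cell death in prolonged stress, had 21.3, 22.2 and 21.5 FPKM in the controls and 20.4, 17.7 and 17.98 FPKM with nattokinase. These groups did not overlap, but the gene missed the threshold (log2 fold change −0.21, limma adjusted p = 0.060). It passed without nattokinase replicate 1 and under 3 other scalings, with limma adjusted p down to 0.015, and its exons overlap those of Mars. Cebpb, a C/EBP partner of ATF4, had 16.1, 19.8 and 16.5 FPKM in the controls and 21.9, 16.8 and 23.1 FPKM with nattokinase, with overlapping groups and a wide interval of −0.09 to 0.53 on the log2 scale. Cebpg, the other C/EBP partner listed, had a log2 fold change of 0.07, and Nupr1, a small stress-induced chromatin protein gene, one of −0.09.

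Among the 36 tested genes the largest change belonged to Trib3, whose product binds ATF4 and CHOP and damps the response (chromosome 2, 152337422 to 152344032). It had 25.3, 29.7 and 26.4 FPKM in the controls and 19.7, 16.6 and 17.9 FPKM with nattokinase, so the lowest control stood well above the highest treated library. Trib3 fell from 27.2 ± 2.30 to 18.1 ± 1.58 FPKM (SD, n = 3; log2 fold change −0.56, SE 0.074, limma adjusted p = 0.0017). It passed the test under each of the 15 alternatives other than the test against a 1.5-fold change. Chac1, which encodes an enzyme that degrades glutathione and is another strongly ATF4-driven gene, had 37.5, 36.4 and 37.2 FPKM in the controls and 34.9, 36.7 and 34.2 FPKM with nattokinase. Its groups overlapped (log2 fold change −0.07, 95% interval −0.17 to 0.03).

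Ddit4 and Sesn2, both inhibitors of the growth kinase complex mTORC1, had log2 fold changes of −0.27 and −0.11 and did not pass (limma adjusted p = 0.12 and 0.24). In Ddit4 the 3 controls lay between 22.8 and 23.2 FPKM, and the treated libraries had 22.2, 16.4 and 18.7 FPKM, so that nattokinase replicate 1 stood near the controls. Vldlr, a lipoprotein receptor gene, had −0.27 (limma adjusted p = 0.074), and both Ddit4 and Vldlr passed with limma-voom on the recovered reads and without nattokinase replicate 1.

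Of the 3 genes too low to test, Gdf15, which encodes a secreted stress cytokine, had 11, 7 and 9 reads in the controls and 3, 2 and 1 with nattokinase. The ratio of its read rates was 0.197 with an exact 95% interval of 0.0665 to 0.487, which covers counting error only. In a fit of all genes without the filter its limma adjusted p was 0.13. The hormone gene Stc2 had 73 reads over the controls and 112 over the treated libraries (ratio 1.36, exact 95% interval 1.003 to 1.85). For the cationic amino acid transporter gene Slc7a3 there were 20 and 9 (ratio 0.399, interval 0.160 to 0.916). These intervals too cover counting error only, and in the fit without the filter neither gene passed (limma adjusted p = 0.66 and 0.55).

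Of 9 tested enzymes of amino acid synthesis and related paths, 3 fell (33.3%, beside 3.24% of all tested genes). The log2 fold change was below 0 for all 9, and for 5010 of all 10913 tested genes. Aldh18a1 and Pycr1 encode the first and last enzymes of proline synthesis from glutamate. Pycr1 had 9.78, 10.7 and 10.6 FPKM in the controls and 8.76, 7.48 and 7.70 FPKM with nattokinase (chromosome 11, 120635712 to 120643769), with no overlap (log2 fold change −0.34, SE 0.067, limma adjusted p = 0.012). Aldh18a1 had 71.8, 72.8 and 73.4 FPKM in the controls and 66.4, 60.3 and 62.8 FPKM with nattokinase (chromosome 19, 40550257 to 40588463), again without overlap (log2 fold change −0.20, SE 0.048, limma adjusted p = 0.030). Pck2, the mitochondrial phosphoenolpyruvate carboxykinase gene, had 27.7, 29.8 and 29.7 FPKM in the controls and 26.4, 23.4 and 22.9 FPKM with nattokinase (chromosome 14, 55540266 to 55551242; log2 fold change −0.25, SE 0.061, limma adjusted p = 0.029). For Aldh18a1 and Pck2 the call was lost when control replicate 2, control replicate 3, nattokinase replicate 2 or nattokinase replicate 3 was left out, with limma adjusted p up to 0.14 and 0.12. That of Pycr1 was lost without control replicate 2 or nattokinase replicate 2 or 3, with limma adjusted p from 0.051 to 0.055.

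The serine and one-carbon enzymes did not pass. Phgdh, the entry enzyme of serine synthesis and the most abundant of this group, had 141.5, 164.5 and 159.3 FPKM in the controls and 163.4, 139.3 and 141.5 FPKM with nattokinase, with overlapping groups (log2 fold change −0.07, 95% interval −0.24 to 0.10). Psat1 and Psph, the next enzymes of that path, had −0.16 and −0.26, and Mthfd2, the mitochondrial folate enzyme, had −0.04. Shmt2, the mitochondrial serine hydroxymethyltransferase gene, had 116.7, 127.6 and 124.3 FPKM in the controls and 124.7, 108.4 and 109.3 FPKM with nattokinase (log2 fold change −0.11). Asns, which makes asparagine, had 81.4, 88.3 and 87.0 FPKM in the controls and 85.2, 70.3 and 70.5 FPKM with nattokinase. In Shmt2 and Asns nattokinase replicate 1 lay among the controls and the other 2 treated libraries lay below all of them, while in Phgdh nattokinase replicate 3 also stood just above the lowest control. None of the 3 passed (limma adjusted p = 0.66 for Phgdh, 0.35 for Shmt2 and 0.17 for Asns).

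Of 5 transporter genes tested 2 fell (40%, beside 3.24% of all tested genes), and both encode carriers of neutral amino acids. Slc7a5, the large neutral amino acid exchanger LAT1, had 107.7, 112.3 and 102.7 FPKM in the controls and 96.0, 85.2 and 86.1 FPKM with nattokinase (chromosome 8, 121881150 to 121907694), without overlap (log2 fold change −0.27, SE 0.059, limma adjusted p = 0.019). This call was lost without control replicate 2 or nattokinase replicate 2 or 3, with limma adjusted p up to 0.092. Slc3a2, which encodes the heavy chain that LAT1 and the cystine exchanger need at the membrane, had 69.5, 70.7 and 71.8 FPKM in the controls and 66.6, 59.9 and 61.4 FPKM with nattokinase. It too showed no overlap but missed the threshold (log2 fold change −0.17, limma adjusted p = 0.064), and it passed without control replicate 1 or nattokinase replicate 1, with limma-voom and under 3 other scalings.

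Slc1a5, the glutamine carrier ASCT2, was expressed at a low level of 8.35, 8.23 and 8.06 FPKM in the controls and 6.31, 6.71 and 6.73 FPKM with nattokinase (chromosome 7, 16781340 to 16798274). It fell with tight groups (log2 fold change −0.28, SE 0.053, limma adjusted p = 0.0098) and is the one called gene in which nattokinase replicate 1 was the lowest library. Slc7a1, the arginine and lysine carrier, was the one tested gene whose treated libraries all lay above the controls, with 29.4, 29.8 and 28.9 against 31.5, 32.0 and 31.5 FPKM. It missed the threshold (log2 fold change 0.11, limma adjusted p = 0.15). Slc7a11, the cystine exchanger, lay just above the filter at 1.30 to 1.47 FPKM in the controls and 1.08 to 1.2505 FPKM with nattokinase (log2 fold change −0.14, limma adjusted p = 0.36).

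Cytosolic aminoacyl-tRNA synthetases, which load tRNAs with their amino acids, were all measured well above the filter. Of the 11, 1 passed, as lower (9.09%), beside 3.24% of all tested genes as lower and 8.85% in either direction. Wars had 25.1, 26.7 and 26.8 FPKM in the controls and 22.2, 18.9 and 20.3 FPKM with nattokinase (chromosome 12, 108860030 to 108894174). Its groups were apart, and Wars fell from 26.2 ± 0.976 to 20.5 ± 1.66 FPKM (SD, n = 3; log2 fold change −0.34, SE 0.061, limma adjusted p = 0.0072). Wars is also known as an interferon-induced gene.

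The remaining 10 synthetases had log2 fold changes from −0.16 to 0.02. Aars, the alanyl enzyme gene, came nearest to the threshold with 59.9, 62.9 and 60.8 against 56.7, 53.5 and 53.4 FPKM (limma adjusted p = 0.054), and it passed without control replicate 1, with limma-voom and under 3 other scalings. Gars, the glycyl enzyme gene, was the most abundant at 113.4, 112.7 and 117.5 FPKM in the controls and 118.2, 107.4 and 107.1 FPKM with nattokinase. Nars, the asparaginyl enzyme gene, had 73.5, 77.3 and 77.5 against 83.2, 76.3 and 72.5 FPKM. Both showed overlapping groups with the highest value in nattokinase replicate 1, and their 95% intervals, −0.16 to 0.07 and −0.11 to 0.15 on the log2 scale, both included 0. Tars and Iars had values of 0.01 and 0.02, and the signs of Tars, Iars and Nars flipped with the scaling. Yars, the tyrosyl enzyme gene, had −0.11 with groups apart (limma adjusted p = 0.24), and Cars, Eprs, Lars and Sars had −0.05, −0.04, −0.05 and −0.05.

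**Figure D3:**
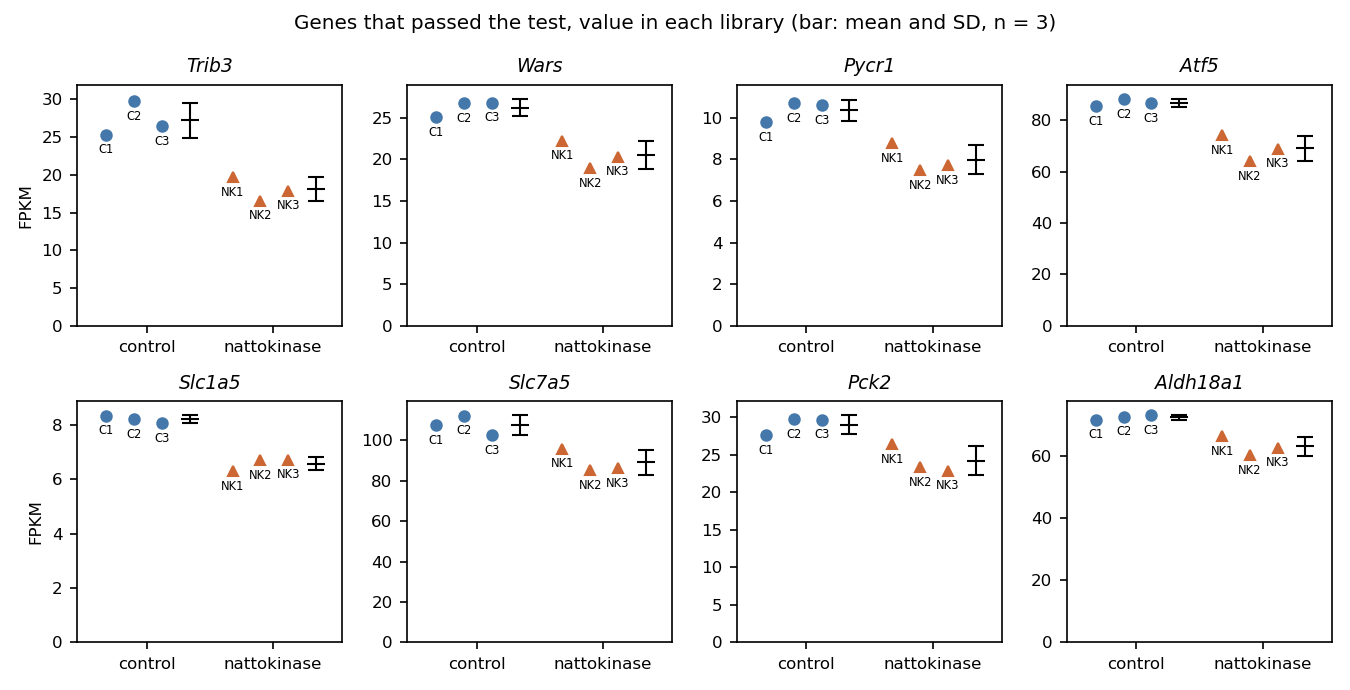
FPKM in each library of the 8 genes that passed the test, with circles for control replicates (C1 to C3), triangles for nattokinase replicates (NK1 to NK3), and the mean with SD (n = 3) beside each group; the axes start at 0. In each panel all 3 triangles lie below all 3 circles, and NK1 is the highest triangle in 7 of the 8, Slc1a5 being the exception.

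Summed over each role, the fall was larger for transporters than for synthetases, as a description with no test. The 6 transporter genes summed to 217 ± 4.75 FPKM in the controls and 191 ± 9.22 FPKM with nattokinase (SD, n = 3), a change of −12.0%. The 9 synthesis genes summed to 625 ± 29.1 and 568 ± 51.2 FPKM (−9.10%), and the 13 regulators to 415 ± 14.9 and 384 ± 17.3 FPKM (−7.44%). The 11 synthetases summed to 533 ± 11.3 and 514 ± 32.0 FPKM (−3.55%), with the highest sum of all 6 libraries, 551 FPKM, in nattokinase replicate 1. Of the 4 sums, that of the transporters was the one whose groups did not overlap.

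The treated libraries were not alike for these genes. In nattokinase replicate 1 the level was above that of both other treated libraries for 30 of the 36 tested genes (83.3%), among them all 11 synthetases, and below both for 1, Slc1a5. Over all tested genes these shares were 36.7% and 34.8%. The median difference from the mean of the controls was −0.04 on the log2 scale in nattokinase replicate 1, −0.17 in replicate 2 and −0.16 in replicate 3, beside 0.02, 0.01 and 0.01 over all tested genes. For the synthetases it was 0.07, −0.11 and −0.10, and for the synthesis genes −0.005, −0.28 and −0.24. Levels in replicates 2 and 3 were both below the lowest control in 26 of the 36 genes (72.2%), against 15.4% of all tested genes. Reads assigned to genes were 18036428, 17525090 and 18341370 in nattokinase replicates 1 to 3, and the protein-coding share of reads was 98.3% to 98.4%. Why nattokinase replicate 1 differed was not tested.

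**Figure D4:**
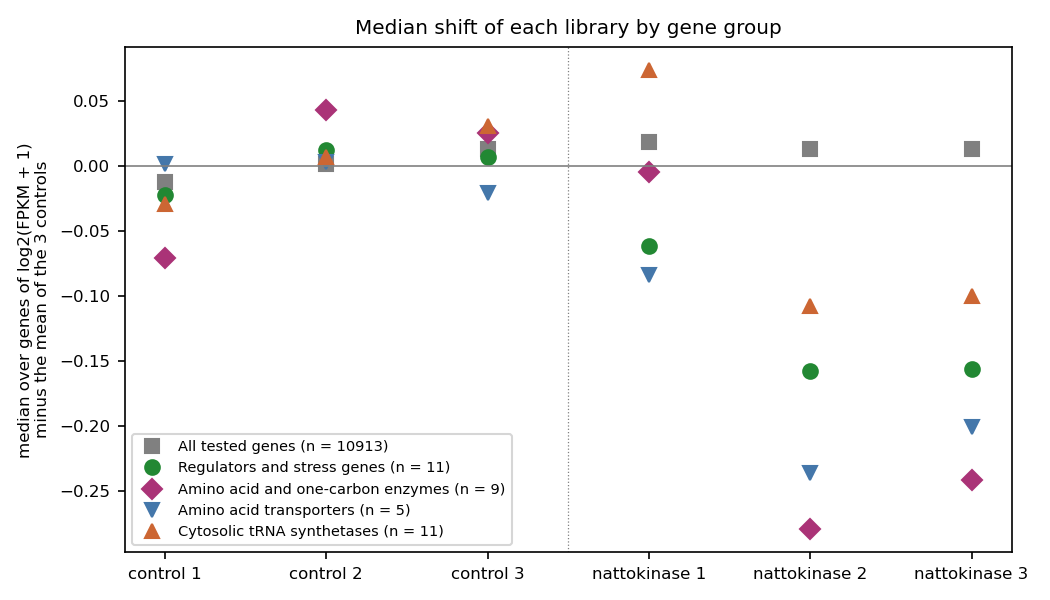
Median over the tested genes of each role, and over all 10913 tested genes, of log2(FPKM + 1) minus the mean of the 3 controls, in each of the 6 libraries. The 4 roles lie lowest in nattokinase replicates 2 and 3 (synthesis genes −0.28 and −0.24), while in nattokinase replicate 1 the synthetases lie at 0.07 and the grey squares of all genes stay near 0 throughout.

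The number that passed moved with this library. Without nattokinase replicate 1 there were 15 of the 36 lower, which added Ddit3, Ddit4, Vldlr, Asns, Psat1, Psph and Slc3a2 to the 8, while 2.29% of all tested genes were lower. Without nattokinase replicate 2, nattokinase replicate 3 or control replicate 2 there were 4, namely Trib3, Atf5, Slc1a5 and Wars each time, with 1.81%, 1.81% and 1.83% of all genes lower. These 4 passed without any 1 library. Of the 36, 0 passed as higher under any alternative.

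The tested genes were also counted by the core TGATGNAA in their promoter window. Of 13 tested genes with it 3 fell, with a median log2 fold change of −0.14 (−0.56 to 0.02). Of 17 tested genes with a window and no core 2 fell, with a median of −0.11 (−0.33 to 0.22). Over all tested genes 3.24% fell, and the median was 0.01. The other 3 called genes, Slc7a5, Slc1a5 and Wars, had no window in the table used. No test was made of this difference, and the count covers only exact matches of the core within these windows. Among the genes with the core shown above, Trib3, Pycr1 and Pck2 fell. Chac1, Asns and Slc7a11, with means of 37.0, 85.6 and 1.37 FPKM in the controls, did not pass.

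Related genes outside the 39 moved in both directions, and few of them passed. Of 28 further ATF4 targets tested (of 30 listed) 3 fell (10.7%) and 1 rose, beside 3.24% and 5.61% of all tested genes. Their median was −0.05. Aldh1l2, a mitochondrial folate enzyme gene, fell from 25.3 ± 1.52 to 19.4 ± 2.38 FPKM (log2 fold change −0.37, limma adjusted p = 0.0215), and the mitochondrial protease gene Lonp1 and the arrestin-like gene Txnip fell by 0.18 and 0.19 on the log2 scale. Slc38a2, the amino acid carrier SNAT2 that is induced by amino acid lack, had 58.6, 55.8 and 57.3 FPKM in the controls and 64.2, 70.5 and 67.6 FPKM with nattokinase, and so rose (log2 fold change 0.23, limma adjusted p = 0.016). Without control replicate 3, nattokinase replicate 2 or nattokinase replicate 3 none of these 4 passed, and without control replicate 2 only Aldh1l2 did. Over the 15 alternatives other than the test against a 1.5-fold change the limma adjusted p reached 0.088 for Slc38a2 and 0.14 for Aldh1l2 and Lonp1, and Aldh1l2 also missed the threshold without control replicate 1.

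Over all tested genes 5.61% passed as higher and 3.24% as lower. Upstream of ATF4, 1 of 16 genes for the eIF2 kinases, kinase regulators, phosphatases and subunits rose and 0 fell. This was Impact, which encodes an inhibitor of the amino acid sensing kinase GCN2, at 6.12, 5.20 and 5.59 FPKM in the controls and 6.66, 7.90 and 7.11 FPKM with nattokinase (log2 fold change 0.31, limma adjusted p = 0.031). Its call was lost when control replicate 2, control replicate 3, nattokinase replicate 2 or nattokinase replicate 3 was left out, and over the same 15 alternatives its limma adjusted p reached 0.17. In the mTORC1 sensing list, 1 of 25 tested genes (4%) fell and 0 rose, beside 3.24% and 5.61% of all tested genes. Sesn1, a relative of Sesn2 that holds mTORC1 back, had 9.34, 9.18 and 9.58 FPKM in the controls and 6.71, 7.39 and 6.86 FPKM with nattokinase (log2 fold change −0.38, limma adjusted p = 0.0026), and it passed without any 1 library.

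Of 7 other serine, glycine and folate enzymes tested (of 11 listed), 0 fell, beside 3.24% of all tested genes. Their median log2 fold change was 0.07, beside 0.01 over all tested genes. Mthfd1, the cytosolic folate enzyme gene, rose from 44.3 ± 1.65 to 53.9 ± 1.76 FPKM (log2 fold change 0.28, limma adjusted p = 0.0060), beside −0.04 for its mitochondrial relative Mthfd2. The difference between these and the 9 synthesis genes was not tested.

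Among the other synthetases, 0 of 9 cytosolic ones passed with limma, where 1 had an unadjusted p under 0.05 and 0 passed with limma-voom, and the 6 scaffold and tRNA export genes likewise gave 0 calls, 0 at an unadjusted p under 0.05 and 0 with limma-voom. Of 16 mitochondrial synthetases tested 1 fell (6.25%, beside 3.24% of all tested genes). This was Lars2, with 421, 361 and 272 FPKM in the controls and 83.4, 81.6 and 79.1 FPKM with nattokinase. That drop, −2.07 on the log2 scale (limma adjusted p = 0.0010), was larger than the log2 fold change of any of the 36 tested genes. The rRNA-like gene CT010467.1 moved with it, at 1.85% to 2.89% of reads in the controls and 0.525% to 0.610% in the treated libraries. Its part in the drop was not tested. The remaining 15 mitochondrial synthetases did not pass, and limma-voom called 2 of the 16 lower.

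**Figure D5:**
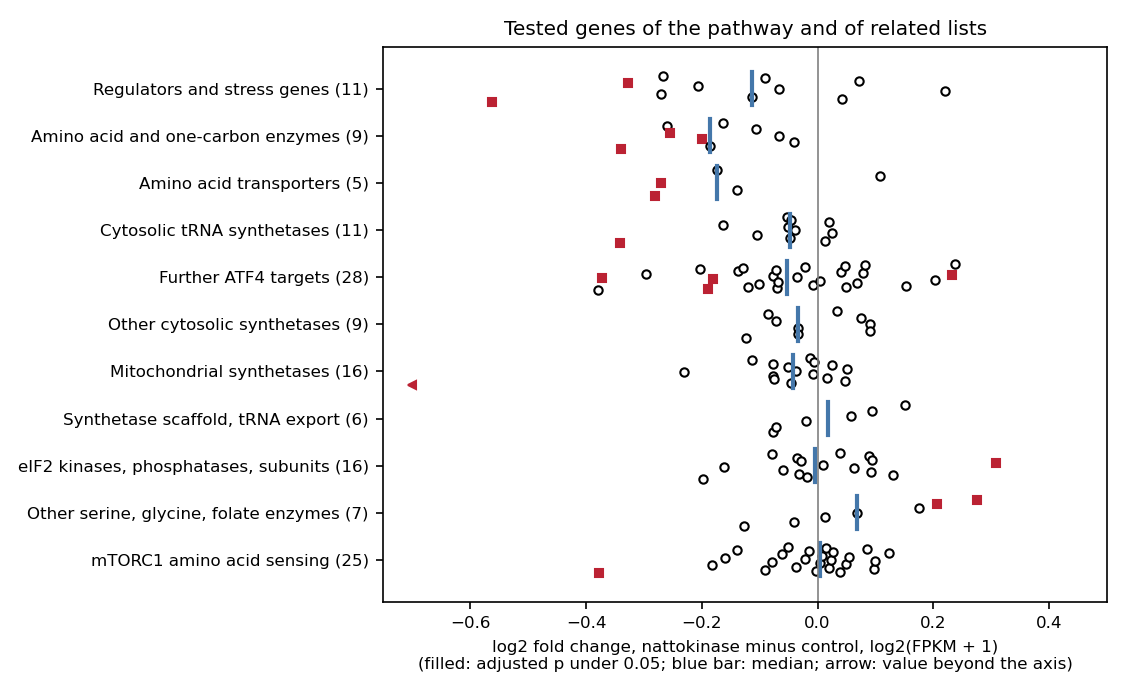
Log2 fold change of each tested gene of the 4 roles and of 7 related lists, with the number tested in brackets, filled red squares for an adjusted p under 0.05, and a blue bar at each list's median. The bars of synthesis genes (−0.19) and transporters (−0.17) lie farthest left, that of the other folate enzymes (0.07) farthest right, and the arrow stands for Lars2 at −2.07.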

How the data were processed

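The authors deposited 1 table per library with FPKM values for 55536 Ensembl genes. Per the submitters' processing notes, the tools included HISAT2 2.1.0, Trimmomatic 0.38 and featureCounts 1.6.0, with no role given, and the build named is GRCh38, a human one, although all identifiers matched mouse GENCODE M21 (GRCm38). FPKM times merged exon length gave whole reads, within 0.05, for 100% of values above 0, in all 15044778 to 18341370 per library. Of the deposited columns, 0 belonged to other samples.

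Genes that reached 1 FPKM in 3 or more libraries were tested as log2(FPKM + 1) with limma 3.58.1 in R 4.3.3 (group only, intensity trend, robust prior, two-sided, Benjamini-Hochberg over all 10913). This scale understates the change of low genes. Exons of 10 of the 36 tested members overlap another gene's. Scripts were tested on simulated data. The 39 genes, the related lists and the tests were chosen with earlier results of these data known, so no p was adjusted over a list. All 39 genes are accounted for. Those called, Atf4, Ddit3, Asns, Atf5, Cebpb, Chac1 and the 2 most abundant per role are given by library, and of each related list up to 4 called genes are named. Of the related lists, 1 gene is not reported here. Other genes given by library were chosen after their values were seen. Ddit3 is also the name of a second identifier that had 0 reads. Within groups the log2 values correlated at 0.992 to 0.995, and replicates differed by more than counting error.

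Alternatives were scaling by protein-coding totals, by median of ratios or by quantiles, limma-voom on those reads, pseudocounts of 0.1 and 0.5, filters of 0.5 FPKM and none, a test against a 1.5-fold change, a replicate block, and leaving out each library. Promoter windows are from RefSeq (GRCm38.p6). Figures were drawn with matplotlib 3.10.9.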

Additional observations from a re-analysis of the deposited data

How the results depend on the processing

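Of the 39 genes, 36 were tested. The number lower ran from 4 to 15 over the 6 left-out libraries, and over all genes 197 to 486 were lower and 328 to 720 higher. Without the filter on low values 1 of the 39 was lower (Trib3), and over all genes 109 were lower and 221 higher, among 24549 genes tested. In the test against a 1.5-fold change 0 of the 36 passed, with 5 lower and 12 higher over all genes. Under every other alternative the counts over the 36 and over all genes stayed within 1.5 times those reported, and the summed level by role moved by less than 1 SD in all 32 comparisons. The median over all genes shifted by less than 0.1 on the log2 scale under each scaling. Counts in the related lists moved more. The further ATF4 targets had 2 higher and 3 lower with limma-voom, and the eIF2 list had 1 lower with limma-voom and under each of the 3 scalings.

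With the replicate number as a block, 6 of the 36 were lower, Aldh18a1 and Pck2 being lost (limma adjusted p = 0.083 and 0.065), and of the further ATF4 targets 0 were higher and 1 lower, and of the eIF2 list 0 were called. Same-numbered replicates did not deviate together (correlations −0.089, −0.044 and −0.059), and 0 of 3 controls correlated best with their own number, so the numbers were not taken as pairs.

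Values not past the threshold changed sign in 15 cases on the log2 scale, and the cause was not tested. With protein-coding totals Iars had −0.0099, Nars −0.014 and Tars −0.022. With quantile normalization Iars had −0.0028 and Nars −0.018, and with median-of-ratios scaling Tars had −0.0040. Over the 6 left-out libraries Atf4 ran from −0.011 to 0.076, Eprs from −0.12 to 0.0049, Iars from −0.018 to 0.051, Nars from −0.033 to 0.065 and Tars from −0.047 to 0.055. A gene under 1 FPKM, such as Gdf15 with 1 to 11 reads, was too shallow for the test.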
